A study of Homo sapiens with 18 samples.

Results

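The genes described here are 36 genes of sterol and fatty acid synthesis, followed over 18 RNA-seq libraries of the human lung cancer line NCI-H1299. They are the genes of the SREBP pathway, and they were selected on their place in that pathway after decreases of INSIG1 and SCD against the pooled controls had been seen in these data. The study itself lists ACAT2, FDFT1, FDPS and LSS among the genes changed by all 4 TBX plasmids. It places them in the Reactome pathway of cholesterol biosynthesis, which its gene set enrichment reports as down with all 4 against controls. By symbol, 35 of the 36 genes were matched to the 63677 genes of the count table, and all 35 were among the 15576 genes tested. They comprise 7 regulators, 19 genes of the sterol arm and 9 of the fatty acid arm. The Ensembl ID of ACACA in the annotation used was absent from the count table, so ACACA has no expression values here, and its promoter entered the motif counts alone. Its counts may stand in the count table under an older ID, which no source used here links to it.

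SREBP transcription factors are made as precursors in the membrane of the endoplasmic reticulum, where the escort protein SCAP and the INSIG proteins hold them when sterols are plentiful. When sterols fall, SCAP carries them to the Golgi, the proteases encoded by MBTPS1 and MBTPS2 release the active fragment, which enters the nucleus and switches on genes of cholesterol and fatty acid synthesis. Tumour cells often use this pathway to build membranes.

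The study asked what each T-box factor of the TBX2 subfamily does in lung cancer cells. Plasmids were introduced transiently with Lipofectamine, so only part of the cells carried them. The groups, of 3 libraries each, were cells given Flag-tagged human TBX2, HA-tagged human TBX3, Flag-tagged human TBX4 or HA-tagged mouse Tbx5 (called TBX5 here), cells given empty vector (EV), and control cells labelled Ctl. The backbone of EV and the treatment of the Ctl cells are not given in the sources used here. Nothing in the labels says that the replicates were separate cultures, so p-values measure only the spread between these samples, which may be technical.

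Total counts were 10320474 to 11445130 in the Ctl libraries, 8853984 to 11743179 for EV, 7365221 to 9146562 for TBX2, 8812923 to 10771902 for TBX3, 9188954 to 10276199 for TBX4 and 7387816 to 8016417 for TBX5. Levels are given in CPM, a gene's counts divided by the TMM-scaled library size in units of 1e+06 counts. A level of 3 counts, taken as the floor of detection, lay between 0.192 and 0.595 CPM. The lowest value of a member was 8 counts, for CYP51A1. The transfected genes followed their labels. TBX2 stood at 4086, 4821 and 4497 CPM in the TBX2 libraries, TBX3 at 17745, 25411 and 22559 in the TBX3 libraries and TBX4 at 7543, 8497 and 7888 in the TBX4 libraries. Reads of the mouse Tbx5 plasmid, counted on the human gene, gave 129, 231 and 242 CPM. In the 6 control libraries TBX2 was at 3.07 to 4.83 CPM, TBX3 at 1.37 to 3.33 CPM, TBX4 at 0 or 1 count and TBX5 at 0 counts. By its number in the labels replicate c of TBX4 belongs with that group, although its name closes with TBX5. It held 85197 counts of TBX4 and 1 of TBX5, and it was kept with TBX4. Without it, 16 members in place of 18 were called for TBX4 against EV, 22 in place of 23 against Ctl, and 18 in place of 20 in the test among the TBX groups.

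Among 9 markers of lung adenocarcinoma and airway epithelium, 5 (NKX2-1, SFTPB, SFTPC, EPCAM and CDH1) were under 1 CPM in every library, while the keratin gene KRT18 stood at 43.2 to 75.8 CPM. Expressed markers varied between the groups. Vimentin (VIM), a mesenchymal filament protein, was at 897 to 970 CPM in Ctl, 861 to 878 in EV, 692 to 752 in TBX2, 742 to 780.4 in TBX3, 788 to 856 in TBX4 and 798 to 894 in TBX5. KRT8 was at 33.3 to 38.0 CPM in Ctl, 39.1 to 40.9 in EV, 19.3 to 23.1 in TBX2, 24.2 to 30.9 in TBX3, 29.5 to 33.6 in TBX4 and 39.7 to 52.7 in TBX5. KRT18 was at 61.2 to 75.8 CPM in Ctl, 69.8 to 73.7 in EV, 43.2 to 51.7 in TBX2, 51.9 to 53.9 in TBX3, 54.5 to 65.8 in TBX4 and 61.7 to 72.9 in TBX5. KRT7 went the other way with TBX2, at 0.98 to 1.39 CPM in Ctl, 0.11 to 1.14 in EV, 1.79 to 2.82 in TBX2, 0.26 to 0.91 in TBX3, 0.48 to 0.74 in TBX4 and 0.56 to 0.79 in TBX5. NAPSA, at low counts, also had its highest mean with TBX2 (0.81 to 1.15 CPM). FN1, fibronectin, was at 35.2 to 39.3 CPM in Ctl, 34.1 to 42.5 in EV, 42.7 to 53.97 in TBX2, 38.2 to 44.8 in TBX3, 49.7 to 50.3 in TBX4 and 49.4 to 56.2 in TBX5. The part of these shifts in the results on the lipid genes was not tested. Markers of leukocytes (3 of 3 genes), fibroblasts (3 of 3) and endothelium (2 of 2 matched) were under 1 CPM throughout, and summed to at most 0.621, 0.974 and 0.804 CPM. In bulk RNA, fewer cells that express a gene and less RNA per cell cannot be told apart.

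A gene without a symbol, ENSG00000266658, took a large and unequal share of the counts. Its share was 30.3% to 40.2% in the Ctl libraries, 12.4% to 34.7% for EV, 19.6% to 40.5% for TBX2, 10.7% to 47.4% for TBX3, 13.2% to 18.6% for TBX4 and 22.5% to 53.5% for TBX5. The lowest share, in TBX3 replicate c, had a 95% Wilson interval of 10.689% to 10.726%, and the highest, in TBX5 replicate b, of 53.449% to 53.521%, which cover counting error only. Its part in the results on these genes was not tested. Scaling by plain library totals, which include this gene, moved the median log2 fold change of all genes to between -0.405 (TBX5 against EV) and 0.361 (TBX4 against Ctl), and all changes given are relative to TMM.

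Promoter sequences of 4 members are shown because the data turn on them: SREBF1, INSIG1 and SCD had the largest mean differences from the controls, and HMGCS1 was among the genes with the clearest split of TBX3 from the other TBX groups. The sequences are from RefSeq on GRCh38.p14, 300 bases each around the start of the gene, at chr17:17836937-17837236 (minus strand), chr7:155297628-155297927 (plus strand), chr5:43313363-43313662 (minus strand) and chr10:100346983-100347282 (plus strand). Capitals mark matches, on either strand, to a core of the sterol regulatory element (CACNCCAC), the E-box (CACGTG), the CCAAT box (CCAAT) and a T-box core (GGTGTGA).
SREBF1: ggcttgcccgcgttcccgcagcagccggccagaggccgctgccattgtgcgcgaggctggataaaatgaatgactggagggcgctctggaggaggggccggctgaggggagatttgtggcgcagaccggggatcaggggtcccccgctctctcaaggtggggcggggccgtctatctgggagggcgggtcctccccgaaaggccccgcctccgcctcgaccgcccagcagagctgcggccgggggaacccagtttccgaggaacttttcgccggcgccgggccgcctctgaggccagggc
INSIG1: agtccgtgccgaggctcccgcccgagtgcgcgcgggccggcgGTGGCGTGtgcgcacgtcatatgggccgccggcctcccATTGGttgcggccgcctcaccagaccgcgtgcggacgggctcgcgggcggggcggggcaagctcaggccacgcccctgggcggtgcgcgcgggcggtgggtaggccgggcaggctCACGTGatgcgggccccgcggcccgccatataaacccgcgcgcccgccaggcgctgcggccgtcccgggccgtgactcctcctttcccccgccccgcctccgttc
HMGCS1: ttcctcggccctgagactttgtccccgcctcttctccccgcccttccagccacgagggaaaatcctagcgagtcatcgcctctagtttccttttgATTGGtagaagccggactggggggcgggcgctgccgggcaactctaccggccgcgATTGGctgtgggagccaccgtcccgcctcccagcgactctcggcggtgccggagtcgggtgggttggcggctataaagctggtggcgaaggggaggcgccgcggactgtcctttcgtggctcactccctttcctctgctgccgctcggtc
SCD: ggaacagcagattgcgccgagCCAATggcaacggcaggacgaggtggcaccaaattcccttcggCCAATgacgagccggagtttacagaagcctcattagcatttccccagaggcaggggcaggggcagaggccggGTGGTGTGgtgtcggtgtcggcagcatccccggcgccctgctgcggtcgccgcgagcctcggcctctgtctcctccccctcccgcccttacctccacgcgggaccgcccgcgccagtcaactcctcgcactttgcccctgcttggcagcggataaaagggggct

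Of the 36 listed genes, 32 had a promoter in that collection of 27305, and ACAT2, FDFT1, SQLE and FASN did not. The sterol element core was present in 4 of the 32 (INSIG1, SC5D, SCD and SREBF2) and in 5.74% of all promoters. The E-box was present in 4 (INSIG1, LSS, SC5D and SCAP) and in 7.43% of all. CCAAT was found in 19 of the 32 and in 35.7% of all, and the T-box core in 0 of the 32 and in 3.43% of all. These counts use the first start listed for each gene, and 10 of the 32, HMGCS1 among them, had more than 1. Over every listed start the sterol element core was present in 6 of the 32 (ACACA and IDI1 added) and in 7.05% of all genes, the E-box in the same 4 and in 8.77%, CCAAT in 22 and in 39.7%, and the T-box core in 0 and in 4.20%. In the sequences printed, SREBF1 held none of the 4 motifs, HMGCS1 held CCAAT alone, at 2 places, and INSIG1 held the sterol core, the E-box and CCAAT. A match describes the letters in this window and is not evidence of binding.

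Among the regulators, SREBF1 and INSIG1 stood far below the controls with TBX2, TBX4 and TBX5, and SREBF2 did so by less. SREBF1 encodes the SREBP-1 factors, which drive fatty acid synthesis genes above all (chromosome 17, bases 17713713 to 17740316 of GRCh37, minus strand). Its level was 105, 113 and 103 CPM in Ctl, 65.8, 68.4 and 73.3 in EV, 40.2, 33.1 and 31.0 in TBX2, 76.1, 77.4 and 69.7 in TBX3, 43.0, 54.0 and 48.2 in TBX4 and 49.6, 45.6 and 48.8 in TBX5. Every Ctl library was above every other library and every TBX2 library below every other, TBX3 overlapped EV, and TBX4 and TBX5 overlapped each other below EV. Against EV the log2 fold change (± SE) was -0.99 ± 0.09 (TBX2), 0.10 ± 0.08 (TBX3), -0.52 ± 0.08 (TBX4) and -0.53 ± 0.09 (TBX5). Against Ctl it was -1.61 ± 0.09, -0.53 ± 0.08, -1.14 ± 0.08 and -1.15 ± 0.09 in the same order, and EV itself was -0.62 ± 0.08 against Ctl.

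INSIG1, which retains the SCAP and SREBP complex and is itself an SREBP target, lies on chromosome 7 (bases 155089486 to 155101945 of GRCh37, plus strand). It was counted at 76.0, 75.0 and 73.7 CPM in Ctl, 47.4, 51.1 and 54.6 in EV, 29.1, 29.6 and 30.2 in TBX2, 46.4, 49.0 and 49.4 in TBX3, 31.0, 29.3 and 27.3 in TBX4 and 33.7, 22.8 and 27.2 in TBX5. The Ctl libraries were again above all others, EV and TBX3 overlapped, and the 9 libraries of TBX2, TBX4 and TBX5 lay below these and overlapped each other. Its log2 fold change from EV was -0.79 ± 0.09 (TBX2), -0.08 ± 0.08 (TBX3), -0.81 ± 0.09 (TBX4) and -0.84 ± 0.09 (TBX5). From Ctl the values were -1.34 ± 0.09, -0.63 ± 0.08, -1.36 ± 0.08 and -1.39 ± 0.09, and EV against Ctl gave -0.55 ± 0.08. SREBF2 encodes SREBP-2, the main activator of sterol synthesis genes. Its level was 67.9, 66.0 and 59.5 CPM in Ctl, 56.2, 64.3 and 54.5 in EV, 45.7, 42.9 and 44.5 in TBX2, 65.7, 58.1 and 58.4 in TBX3, 41.7, 50.1 and 49.6 in TBX4 and 48.8, 42.1 and 45.03 in TBX5. Ctl, EV and TBX3 overlapped, and all 9 libraries of TBX2, TBX4 and TBX5 were lower than these. Its log2 fold change from EV was -0.39 ± 0.08 (TBX2), 0.06 ± 0.08 (TBX3), -0.30 ± 0.08 (TBX4) and -0.35 ± 0.09 (TBX5).

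The escort SCAP varied less between groups, and the second retention protein INSIG2 was at the lowest level of the regulators. SCAP was at 36.8, 38.4 and 33.8 CPM in Ctl, 40.7, 36.7 and 38.7 in EV, 36.98, 32.8 and 28.7 in TBX2, 41.3, 36.8 and 34.1 in TBX3, 36.6, 38.5 and 38.6 in TBX4 and 39.4, 37.5 and 37.6 in TBX5. Most groups overlapped, every TBX2 library was below every TBX5 library, and TBX2 replicate c was lowest. With TBX2 against EV the log2 fold change of SCAP was -0.23 ± 0.09, a call lost without EV replicate a or c or TBX2 replicate b or c (-0.15 to -0.23) and with library totals (-0.304, at an adjusted p of 0.858 in the quasi-likelihood test of edgeR, Benjamini-Hochberg adjusted). INSIG2 was at 8.14, 7.01 and 5.95 CPM in Ctl, 6.51, 7.84 and 6.83 in EV, 7.46, 8.45 and 10.4 in TBX2, 4.85, 7.69 and 5.76 in TBX3, 7.21, 5.99 and 7.04 in TBX4 and 8.32, 6.15 and 5.77 in TBX5. Most groups overlapped here too, every TBX2 library was above every TBX4 library, and TBX2 replicate c was highest and TBX3 replicate a lowest. The 2 protease genes ranged over all libraries from 77.9 to 96.7 CPM (MBTPS1) and from 20.4 to 35.95 CPM (MBTPS2).

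**Figure D1:**
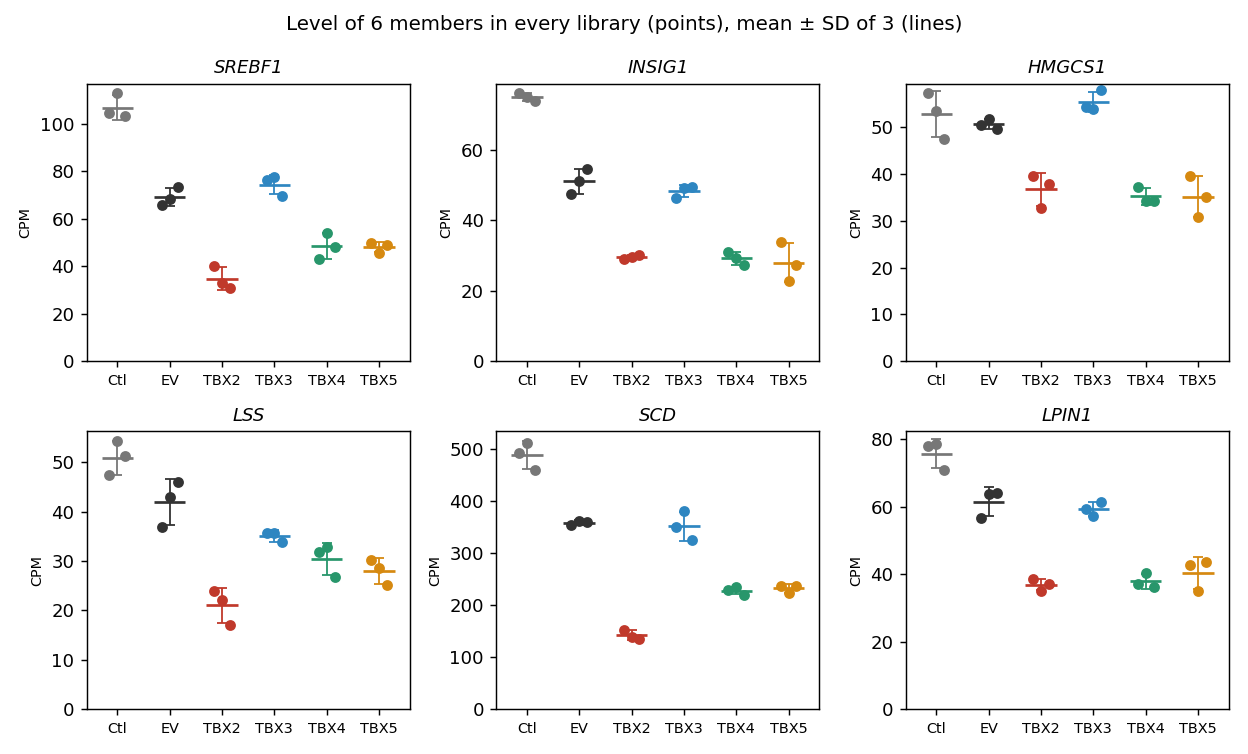
Level in CPM (vertical axes, from 0) of SREBF1, INSIG1, HMGCS1, LSS, SCD and LPIN1 in the 6 groups (horizontal axes). Points are single libraries, long lines means and bars ± 1 SD of 3 libraries. TBX3 overlaps EV for SREBF1, INSIG1, SCD and LPIN1, with SCD at 325 to 380.2 CPM against 353 to 362, and TBX2 lies below all other groups for SREBF1, LSS and SCD.

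In the plot of 6 members by library, the spread within a group was small beside the steps from Ctl to EV and from EV to TBX2 for SCD and INSIG1. LSS is the gene in it for which every TBX3 library was below every EV library.

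In the sterol arm, values in every library are given for 7 enzymes between acetyl-CoA and lanosterol. LSS, lanosterol synthase, was at 47.4, 54.2 and 51.3 CPM in Ctl, 36.8, 43.0 and 46.0 in EV, 23.9, 22.0 and 17.0 in TBX2, 35.6, 35.8 and 33.7 in TBX3, 31.8, 32.8 and 26.7 in TBX4 and 30.2, 28.6 and 25.1 in TBX5. The Ctl, EV and TBX3 groups followed each other downward with no overlap, TBX4 and TBX5 overlapped below them, and TBX2 was lowest. Its log2 fold change was -0.99 ± 0.11 (TBX2), -0.28 ± 0.10 (TBX3), -0.47 ± 0.10 (TBX4) and -0.58 ± 0.11 (TBX5) against EV, and -1.26 ± 0.10, -0.55 ± 0.10, -0.74 ± 0.09 and -0.85 ± 0.10 against Ctl.

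FDFT1, squalene synthase, commits farnesyl groups to sterols. It was at 102, 108 and 98.0 CPM in Ctl, 90.5, 87.6 and 91.5 in EV, 59.1, 54.6 and 54.1 in TBX2, 76.4, 73.3 and 78.2 in TBX3, 65.8, 64.2 and 65.6 in TBX4 and 68.9, 60.1 and 57.9 in TBX5. Ctl, EV and TBX3 did not overlap with any other group, and TBX5 overlapped both TBX4 and TBX2 at the lower end. Against EV the log2 fold change of FDFT1 was -0.68 ± 0.07 (TBX2), -0.24 ± 0.07 (TBX3), -0.46 ± 0.07 (TBX4) and -0.52 ± 0.07 (TBX5). FDPS, which makes farnesyl diphosphate, was at 67.4, 64.8 and 64.5 CPM in Ctl, 49.1, 54.3 and 58.3 in EV, 33.4, 39.1 and 34.4 in TBX2, 40.4, 41.6 and 48.9 in TBX3, 48.6, 44.1 and 42.1 in TBX4 and 41.8, 38.9 and 38.0 in TBX5. All 12 TBX libraries were below all 3 EV libraries, TBX3 overlapped TBX4 and TBX5, and TBX2 overlapped TBX5. FDPS gave log2 fold changes from EV of -0.60 ± 0.09 (TBX2), -0.30 ± 0.08 (TBX3), -0.27 ± 0.08 (TBX4) and -0.45 ± 0.09 (TBX5). FDPS shares 18.6% of its exon bases with other genes and has 8 annotated pseudogenes, so its counts are uncertain where reads could fall on either.

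IDI1, the isomerase that makes dimethylallyl diphosphate, was at 43.1, 43.7 and 43.5 CPM in Ctl, 34.96, 32.8 and 38.2 in EV, 21.9, 25.9 and 25.8 in TBX2, 32.0, 33.8 and 35.5 in TBX3, 28.0, 24.2 and 22.9 in TBX4 and 27.7, 24.01 and 22.1 in TBX5. EV and TBX3 overlapped, and TBX2, TBX4 and TBX5 overlapped each other below them. IDI1 has 3 annotated pseudogenes and shares 15% of its exon bases. ACAT2, the cytosolic thiolase that starts the pathway, was at 59.2, 62.1 and 62.7 CPM in Ctl, 57.3, 56.1 and 60.9 in EV, 39.2, 40.0 and 38.1 in TBX2, 43.4, 45.7 and 47.2 in TBX3, 49.5, 49.0 and 48.1 in TBX4 and 49.2, 45.4 and 48.8 in TBX5. Ctl overlapped EV, every TBX library was below every control library, and TBX2 was lowest with no overlap. ACAT2 shares 22.2% of its exon bases with other genes.

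HMGCS1, the cytosolic HMG-CoA synthase, followed another order (chromosome 5, bases 43287572 to 43313614 of GRCh37, minus strand). Its level was 57.3, 53.6 and 47.6 CPM in Ctl, 50.6, 51.7 and 49.7 in EV, 39.6, 32.7 and 37.82 in TBX2, 54.4, 54.0 and 58.0 in TBX3, 37.3, 34.2 and 34.2 in TBX4 and 39.5, 30.8 and 35.2 in TBX5. All TBX3 libraries were above all EV libraries and overlapped Ctl, while the 9 libraries of TBX2, TBX4 and TBX5 lay between 30.8 and 39.6 CPM, under every other library. The log2 fold change from EV was -0.47 ± 0.09 (TBX2), 0.14 ± 0.08 (TBX3), -0.52 ± 0.08 (TBX4) and -0.51 ± 0.09 (TBX5). HMGCS1 shares 38% of its exon bases with other genes, and counting by default takes no account of strand. SQLE, squalene epoxidase, was at 88.4, 87.3 and 87.0 CPM in Ctl, 76.8, 79.9 and 75.0 in EV, 65.8, 62.5 and 62.3 in TBX2, 81.2, 85.2 and 80.1 in TBX3, 70.1, 68.7 and 70.2 in TBX4 and 70.2, 71.2 and 67.9 in TBX5. TBX3 lay between EV and Ctl with no overlap, TBX4 and TBX5 lay below EV, and TBX2 was lowest.

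For the other 12 genes of the sterol arm the range over all libraries is given. DHCR7, the last reductase of cholesterol synthesis, ranged from 14.1 to 25.8 CPM, MVK from 3.08 to 10.2 CPM, MSMO1 from 12.9 to 21.7 CPM and EBP, the sterol isomerase, from 13.3 to 23.8 CPM. STARD4, a carrier of cholesterol between membranes, ranged from 25.6 to 42.5 CPM. The ranges were 3.02 to 5.00 CPM for PMVK, 12.4 to 23.6 for MVD, 3.63 to 6.35 for TM7SF2, 7.14 to 10.9 for NSDHL, 2.79 to 7.24 for HSD17B7 and 14.1 to 22.0 for SC5D. CYP51A1, lanosterol demethylase, was at 1.49 to 4.34 CPM. It shares 74.1% of its exon bases with other genes and has 3 annotated pseudogenes, and EBP shares 36.4%, so both are uncertain. HSD17B7 has 2 annotated pseudogenes, and SCD and ACSL3 have 1 each.

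In the fatty acid arm SCD, the desaturase that makes oleate and palmitoleate, had the single largest difference of any member, with TBX2 (chromosome 10, bases 102106990 to 102124583 of GRCh37, plus strand). Its level was 493, 512 and 459.6 CPM in Ctl, 353, 362 and 360.0 in EV, 152, 139 and 134 in TBX2, 350.1, 380.2 and 325 in TBX3, 228, 234 and 220.0 in TBX4 and 237, 223 and 237 in TBX5. Every TBX2 library was below every other library, TBX4 and TBX5 overlapped in the middle, TBX3 overlapped EV, and Ctl was highest. Against EV the log2 fold change was -1.34 ± 0.07 (TBX2), -0.03 ± 0.07 (TBX3), -0.66 ± 0.07 (TBX4) and -0.62 ± 0.07 (TBX5). Against Ctl it was -1.78 ± 0.07, -0.48 ± 0.07, -1.10 ± 0.07 and -1.07 ± 0.07, with EV at -0.45 ± 0.07.

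FASN, fatty acid synthase, was at 462, 448 and 325 CPM in Ctl, 304, 317 and 304 in EV, 220.5, 149 and 191 in TBX2, 280.2, 267 and 286 in TBX3, 179, 232 and 233 in TBX4 and 261, 184 and 207 in TBX5. Ctl replicate c was well below the other Ctl libraries yet above every EV library, TBX3 lay below EV, and TBX2, TBX4 and TBX5 overlapped below TBX3. For FASN the log2 fold change from EV was -0.73 ± 0.13 (TBX2), -0.15 ± 0.13 (TBX3), -0.52 ± 0.13 (TBX4) and -0.50 ± 0.13 (TBX5). LPIN1, a phosphatidate phosphatase on the way to triglycerides, was at 78.0, 78.5 and 70.8 CPM in Ctl, 56.5, 63.9 and 64.0 in EV, 38.6, 35.1 and 37.01 in TBX2, 59.2, 57.3 and 61.5 in TBX3, 37.1, 40.3 and 36.2 in TBX4 and 42.6, 34.9 and 43.5 in TBX5. EV and TBX3 overlapped, and TBX2, TBX4 and TBX5 formed an overlapping lower group. LPIN1 had log2 fold changes from EV of -0.74 ± 0.08 (TBX2), -0.05 ± 0.08 (TBX3), -0.70 ± 0.08 (TBX4) and -0.60 ± 0.08 (TBX5).

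FADS1, the delta-5 desaturase, was at 101, 103 and 100.1 CPM in Ctl, 97.1, 92.5 and 99.7 in EV, 66.3, 72.0 and 66.2 in TBX2, 81.8, 87.8 and 86.7 in TBX3, 81.3, 78.6 and 75.0 in TBX4 and 78.4, 67.3 and 70.3 in TBX5. Every TBX library was below every control library, and TBX5 overlapped both TBX4 and TBX2. ACSL3, which activates long-chain fatty acids, was at 164, 174 and 169 CPM in Ctl, 129, 136 and 134 in EV, 111, 119.7 and 122 in TBX2, 141, 158 and 145 in TBX3, 129, 124 and 124 in TBX4 and 118, 115 and 129.7 in TBX5. TBX3 lay between EV and Ctl with no overlap, TBX4 and TBX5 overlapped EV and each other, and TBX2 overlapped TBX5 alone. Over all libraries ACLY, which makes cytosolic acetyl-CoA from citrate, ranged from 103 to 153 CPM, ELOVL6 from 25.1 to 41.6 CPM, ACSS2 from 14.0 to 18.6 CPM and FADS2 from 5.33 to 10.3 CPM.

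Per kilobase of exon, the mean level over the 6 control libraries was 80.7 CPM for SCD, 38.6 for FASN, 27.5 for ACLY and 22.6 for ACAT2, the 4 highest members on that scale. SREBF1 was at 10.7 and SREBF2 at 7.63 CPM per kilobase. At the low end were CYP51A1 at 0.729, FADS2 at 0.792 and MVK at 0.883 CPM per kilobase.

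**Figure D2:**
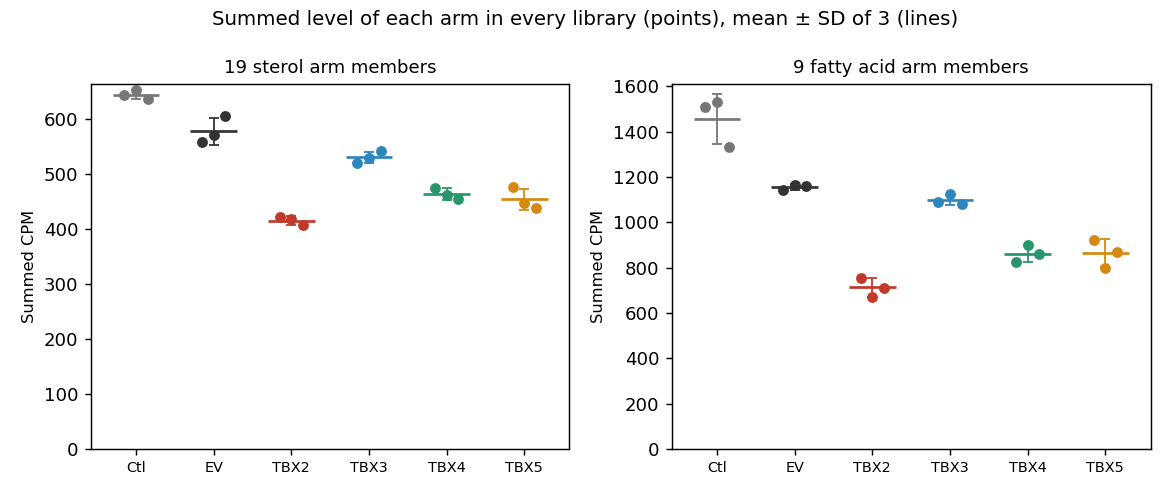
Summed CPM (vertical axes, from 0) of the 19 sterol arm members and of the 9 fatty acid arm members in each library, by group (horizontal axes). Points are libraries, long lines means and bars ± 1 SD of 3 libraries. Both sums are lowest with TBX2, at 406 to 421 and 671 to 756 CPM.

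Summed over the sterol arm, the Ctl libraries held 635 to 652 CPM, EV 557 to 604, TBX3 520.4 to 541, TBX4 454 to 475, TBX5 437 to 475 and TBX2 406 to 421. The fatty acid arm summed to 1331 to 1531 CPM in Ctl, 1141 to 1164 with EV, 1079 to 1124 with TBX3, 826 to 898 with TBX4, 799 to 924 with TBX5 and 671 to 756 with TBX2. In the plot of the summed levels the 6 groups keep nearly the same order in both arms, and TBX4 overlaps TBX5.

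The contrasts with EV and Ctl led to the choice of these genes, so their counts are given as a description and nothing is read from them. They also share their control libraries. A member counts as called at an adjusted p under 0.1 in the quasi-likelihood test of edgeR, Benjamini-Hochberg adjusted. Against EV, TBX2 had 25 of 35 members called lower and 0 higher, where 13.4% of all tested genes were called lower and 14.7% higher. TBX3 had 5 lower (ACAT2, ACLY, FDFT1, FDPS and LSS, named after their values were seen) and 0 higher, with 4.13% and 5.78% over all genes. TBX4 had 18 lower and 0 higher, with 2.63% and 3.83%. TBX5 had 16 lower and 0 higher, with 4.96% and 5.26%. The TBX3 count was 2 without EV replicate c and 2 without TBX3 replicate b. Of these calls, LSS was lost in DESeq2 (-0.27) and without EV replicate b or c or any TBX3 replicate (-0.19 to -0.29). FDPS was lost without EV replicate c or TBX3 replicate a or b (-0.23 to -0.26), and FDFT1 without EV replicate c or TBX3 replicate b (-0.22 to -0.23). For TBX3 10 members were under an unadjusted p of 0.05, and DESeq2 called 4.

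Against Ctl, TBX2 had 24 members called lower and 0 higher, where 13.4% and 15.3% of all genes were called. TBX3 had 17 lower and 0 higher, with 4.15% and 6.66%. With TBX4, 22 were lower and 1, CYP51A1, was higher, with 4.03% and 5.68%. CYP51A1 was at 2.16, 2.04 and 2.975 CPM in Ctl, 3.08, 3.65 and 4.34 in EV and 3.84, 3.89 and 3.61 in TBX4. Every EV library of this gene was also above every Ctl library. DESeq2 called 0 members higher for TBX4 against Ctl. With TBX5, 21 were lower and 0 higher, with 4.37% and 5.70%. For EV against Ctl 4 members were called lower (SREBF1, INSIG1, SCD and ACSL3, named after their values were seen) and 0 higher, where 0.0514% of all genes were called lower and 0.135% higher. For EV against Ctl the count was 6 without Ctl replicate c.

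By direction alone, the median log2 fold change of the 35 members against EV was -0.39 for TBX2, -0.14 for TBX3, -0.25 for TBX4 and -0.31 for TBX5. Against Ctl the medians were -0.52, -0.24, -0.37 and -0.38, and for EV against Ctl the median was -0.13. Over all tested genes each of these 9 medians lay within 0.01 of 0. With library totals the members' medians were -0.478, -0.311, -0.0978 and -0.71 against EV and -0.415, -0.222, -0.0164 and -0.579 against Ctl. For EV against Ctl the members' median was then 0.0702. That scaling moved all genes too, to medians of -0.0829, -0.172, 0.159 and -0.405 against EV. Over all genes it gave 0.111, 0.024, 0.361 and -0.208 against Ctl, and 0.201 for EV against Ctl. The median SE of a member ran from 0.09 to 0.10 on the log2 scale over the 9 contrasts. The sterol arm had 13, 4, 10 and 9 of 19 members called lower against EV with TBX2, TBX3, TBX4 and TBX5, the fatty acid arm 8, 1, 5 and 4 of 9, and the regulators 4, 0, 3 and 3 of 7. With scaling by library totals the counts against EV were 4, 0, 0 and 4, and against Ctl 6, 0, 1 and 7 lower, with 1 higher for TBX4. With library totals that leave out the most counted gene they were 25, 7, 18 and 17 against EV.

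**Figure D3:**
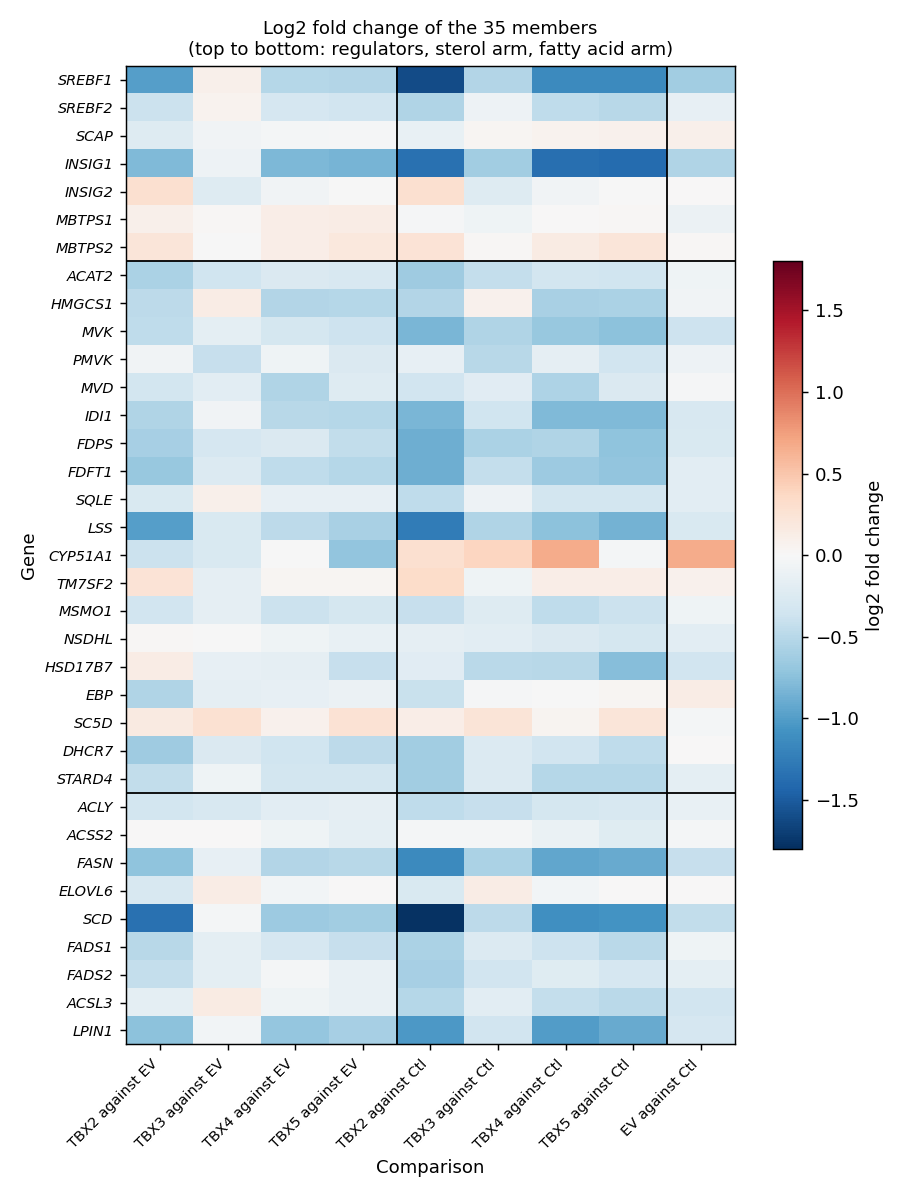
Log2 fold change (colour, from -1.8 in blue to 1.8 in red) of the 35 members (vertical axis, with lines between regulators, sterol arm and fatty acid arm) in 9 comparisons (horizontal axis). SCD with TBX2 against Ctl is the deepest value, at -1.78, and most cells of the TBX3 against EV column are pale.

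The map of log2 fold changes shows the members side by side. Among the genes near 0 or above it in most comparisons were SC5D, TM7SF2, MBTPS1, MBTPS2 and INSIG2, and CYP51A1 is below 0 against EV and above 0 against Ctl with TBX2 and TBX3.

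Differences among the 4 TBX groups compare no control group, although the control libraries enter the estimate of spread in the shared fit. Fitted on the 12 TBX libraries alone, 19 members were called and DHCR7 was lost. In the shared fit 20 of 35 members differed at an adjusted p under 0.1 (the quasi-likelihood test of edgeR, Benjamini-Hochberg adjusted), where 22.7% of all tested genes did. By role these were 3 of 7 regulators (SREBF1, SREBF2 and INSIG1), 11 of 19 sterol arm members and 6 of 9 fatty acid arm members. The libraries compared include those in which the decreases of INSIG1 and SCD had been seen, so the differences of these 2 genes are a description. Without them 18 of 33 members were called, and without ACAT2, FDFT1, FDPS and LSS as well 14 of 29. DESeq2 called 18 of the 35, and 22 were under an unadjusted p of 0.05, as were 4653 of all 15576 tested genes. TBX3 had the highest mean of the 4 groups in 17 of the 20, INSIG1 and SCD among them, and TBX2 the lowest in 17, SCD among them. The share of all called genes with this order is not given here, so the order is a description and nothing is read from it. Calls that depended on a single library were those of EBP and FDPS, lost without TBX2 replicate a (adjusted p of 0.188 and 0.117 by the same test), ELOVL6, lost without TBX2 replicate b (0.114), and STARD4, lost without TBX3 replicate a or c (up to 0.149). MVD was lost without TBX3 replicate b, TBX4 replicate a or TBX4 replicate c (up to 0.278), and DHCR7 without any of 7 libraries (TBX2 replicates b and c, TBX3 replicates a and b, TBX4 replicates b and c and TBX5 replicate c, up to 0.247). Among members not called, SCAP was called without TBX2 replicate a (0.0938), INSIG2 without TBX3 replicate b or TBX5 replicate a (down to 0.0703), and CYP51A1 without TBX5 replicate b (0.0834). With library totals, 2 of the 20 remained, SCD and SREBF1.

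SREBF1 differed among the TBX groups at an adjusted p of 5.55e-09 by the quasi-likelihood test of edgeR, Benjamini-Hochberg adjusted. Its log2 fold change was -1.08 ± 0.09 for TBX2 against TBX3, -0.47 ± 0.09 for TBX2 against TBX4 and 0.61 ± 0.08 for TBX3 against TBX4. SCD, given as a description, had -1.31 ± 0.07 for TBX2 against TBX3, -0.68 ± 0.07 for TBX2 against TBX4 and -0.71 ± 0.07 for TBX2 against TBX5. TBX3 against TBX4 gave 0.63 ± 0.07 for SCD, TBX3 against TBX5 0.59 ± 0.07 and TBX4 against TBX5 -0.03 ± 0.07. In both genes TBX3 was highest and TBX2 lowest of the 4 groups, and 5 of the 6 pairs were called, all but TBX4 against TBX5.

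A split of TBX3 from each of the other 3 TBX groups, with no call between those, was found for 7 of 35 members, SREBF2, INSIG1, HMGCS1, IDI1, SQLE, ACSL3 and LPIN1, and for 1.87% of all tested genes. INSIG1, given as a description, had -0.71 ± 0.09 for TBX2 against TBX3 and 0.02 ± 0.09 for TBX2 against TBX4. HMGCS1 differed at an adjusted p of 1.28e-06 in the quasi-likelihood test of edgeR, Benjamini-Hochberg adjusted, with TBX3 above TBX4 by 0.66 ± 0.08 and above TBX5 by 0.64 ± 0.09. LPIN1 had 0.65 ± 0.08 and 0.55 ± 0.08 in these pairs. For SQLE the values were smaller, 0.24 ± 0.06 and 0.23 ± 0.06, and for ACSL3 0.23 ± 0.06 and 0.29 ± 0.07. The TBX3 to TBX4 value became -0.11 for SQLE and for ACSL3 with library totals, a scaling that shifts all genes. In that pair the SQLE call was lost with no count filter (0.236), which ends its split. The ACSL3 call was lost without TBX3 replicate b (0.18, adjusted p of 0.151 in the quasi-likelihood test of edgeR, Benjamini-Hochberg adjusted).

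A split of TBX2 from each of the other 3, with no call between those, was found for 3 of 35 members, ACAT2, LSS and EBP, and for 3.46% of all tested genes. LSS had log2 fold changes of -0.71 ± 0.11, -0.52 ± 0.11 and -0.40 ± 0.12 for TBX2 against TBX3, TBX4 and TBX5. Its call between TBX2 and TBX5 was lost without TBX2 replicate c (-0.30), without TBX5 replicate a (-0.33) and with library totals (-0.087). LSS was called between TBX3 and TBX5 with no count filter (0.34) and without TBX5 replicate a (0.38), and either ends its split. ACAT2 had -0.22 ± 0.07, -0.32 ± 0.07 and -0.29 ± 0.07. For ACAT2 the call between TBX2 and TBX3 was lost without TBX2 replicate c (-0.20), without TBX3 replicate c (-0.18), with no count filter on all libraries (-0.238), with library totals (-0.13) and with library totals that leave out the most counted gene (-0.18). TBX2 against TBX5 became 0.03 for ACAT2 with library totals, a scaling that shifts all genes.

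Pair by pair, TBX2 against TBX3 called 20 members, where 15.5% of all genes were called, with 19 lower in TBX2 and INSIG2 higher (0.52 ± 0.17). The INSIG2 call was lost without TBX2 replicate c (0.41), TBX3 replicate a (0.42) or TBX3 replicate c (0.48). TBX2 against TBX4 called 8, all lower in TBX2, with 12.3% of all genes called, and 5 without TBX4 replicate a. TBX2 against TBX5 called 6, all lower in TBX2, with 12.1% over all genes. The count was 4 without TBX5 replicate a. TBX3 against TBX4 called 13, all higher in TBX3, with 9.97% over all genes, and TBX3 against TBX5 called 11, all higher in TBX3, with 7.41%. These shares count both directions. Of all 15576 tested genes, TBX2 had 1169 called lower and 1248 higher against TBX3. Against TBX4 it had 874 lower and 1037 higher, and against TBX5 886 and 1004. TBX3 had 626 lower and 927 higher against TBX4, and 485 and 669 against TBX5. TBX4 against TBX5 called 0 members in edgeR, where 0.539% of all genes were called. There 2 members were under an unadjusted p of 0.05, and DESeq2 called 0. Scaling by library totals changed the counts of members to 2, 0, 0, 0, 0 and 20, in the order given. That scaling shifts all genes, with medians against EV of 0.159 for TBX4 and -0.405 for TBX5. The shares of all genes called with it are not given, so nothing is read from these counts.

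**Figure D4:**
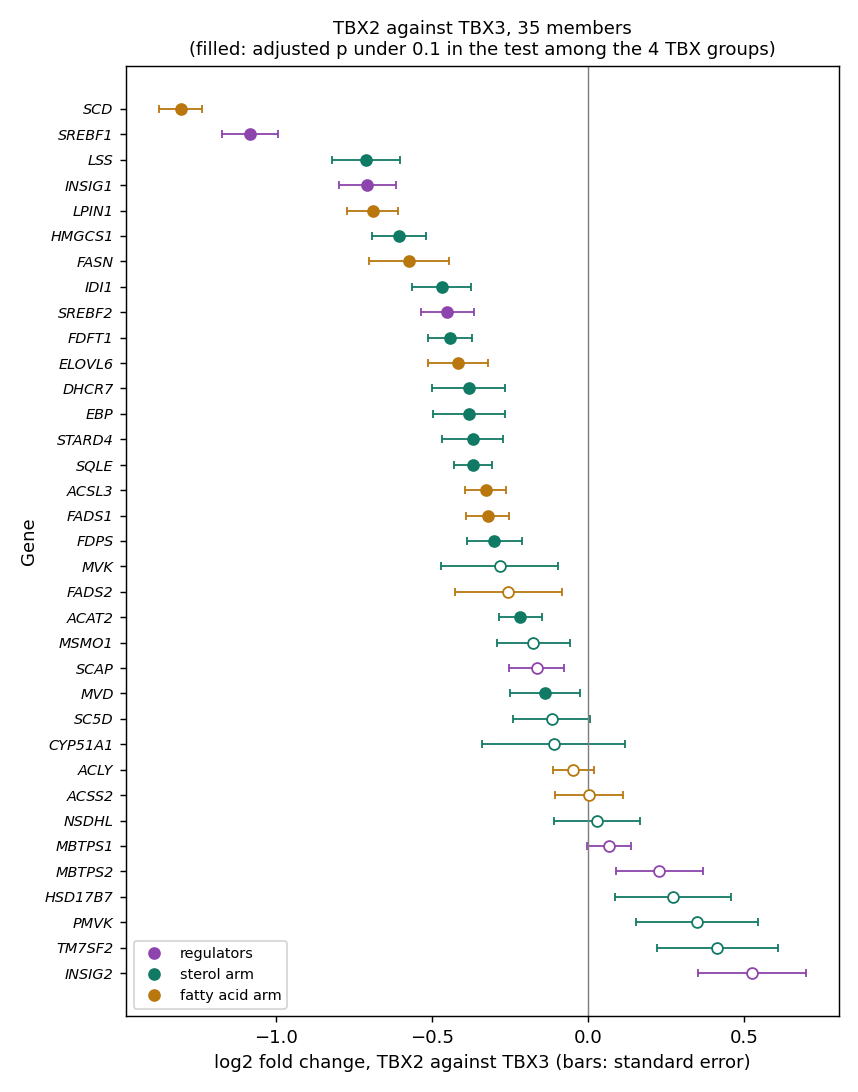
Log2 fold change of TBX2 against TBX3 (horizontal axis, bars ± 1 SE) for the 35 members (vertical axis, in order of size). Colours mark the role, and filled points the 20 members with an adjusted p under 0.1 in the test among the 4 TBX groups. SCD, at -1.31, and SREBF1, at -1.08, lie farthest from 0.

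In the plot of TBX2 against TBX3, filled points come from all 3 roles. MVD, filled near -0.14, passed among the groups and, of the pairs, in TBX3 against TBX4 alone (0.35 ± 0.11), while INSIG2, open at 0.52, passed in the single pair shown and not among the groups.

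Other lipid genes were taken from 6 lists outside the members, 60 genes tested in all. Those called in the same direction against both EV and Ctl, which share the TBX libraries, numbered 10 for TBX2, 3 for TBX3, 2 for TBX4 and 4 for TBX5, 19 of 240 combinations. Over all tested genes the shares were 20.6%, 5.84%, 4.01% and 5.86%, so these counts are near the background and are no result about the lists.

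The citrate carrier SLC25A1, which exports citrate from mitochondria for fatty acid synthesis, was lower with every TBX. It was at 41.7, 39.9 and 41.7 CPM in Ctl, 35.98, 43.8 and 43.97 in EV, 28.2, 28.6 and 22.1 in TBX2, 31.6, 28.1 and 34.1 in TBX3, 31.4, 34.9 and 31.1 in TBX4 and 36.5, 30.8 and 28.5 in TBX5. All 12 TBX libraries except TBX5 replicate a were below all 6 control libraries. TBX2 gave -0.64 ± 0.10 against EV and -0.63 ± 0.10 against Ctl, with adjusted p of 3.08e-05 and 3.84e-05 in the quasi-likelihood test of edgeR, Benjamini-Hochberg adjusted. With TBX3, TBX4 and TBX5 the values against EV were -0.39 ± 0.10, -0.35 ± 0.09 and -0.36 ± 0.10. These calls were lost without single libraries: for TBX3 without EV replicate c (-0.34), for TBX4 without EV replicate b or c or TBX4 replicate a or c (-0.30 to -0.33), and for TBX5 without EV replicate b or c or TBX5 replicate b or c (-0.28 to -0.33). Against Ctl the TBX4 call was lost without TBX4 replicate a (-0.31) and the TBX5 call without TBX5 replicate b or c (-0.27 to -0.31). TBX4 against Ctl became 0.02 with library totals, where the median of all genes was 0.361.

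In the whole fatty acid and glycerolipid list (14 tested), the genes that fell against EV numbered 4 for TBX2, 2 for TBX3, 1 for TBX4 and 5 for TBX5, and 1 rose with TBX4, where 13.4%, 4.13%, 2.63% and 4.96% of all genes were called lower and 3.83% higher with TBX4. ACSL4, a ligase for arachidonate, fell with TBX5, at -0.30 ± 0.08 against EV, where the call was lost without TBX5 replicate c (-0.26), and at -0.38 ± 0.08 against Ctl. ELOVL5, an elongase, gave -0.15 ± 0.06 and -0.27 ± 0.06 with TBX2 against EV and Ctl, and the EV call was lost without EV replicate a, b or c or TBX2 replicate a or b (-0.10 to -0.16). MLXIPL was not tested for low counts.

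Among sterol uptake, transport and storage genes (9 tested), LRP8, a lipoprotein receptor, was at 31.6, 30.3 and 34.8 CPM in Ctl, 33.2, 34.99 and 32.1 in EV, 25.7, 23.1 and 23.2 in TBX2, 24.5, 28.1 and 25.4 in TBX3, 32.3, 33.2 and 32.4 in TBX4 and 41.4, 38.5 and 48.8 in TBX5. All TBX5 libraries were above all others, all TBX2 and TBX3 libraries were below all others, and TBX4 overlapped the controls. LRP8 fell with TBX2 (-0.47 ± 0.09 against EV) and TBX3 (-0.36 ± 0.09) and rose with TBX5 (0.36 ± 0.08), with an adjusted p among the TBX groups of 2.36e-07 (the quasi-likelihood test of edgeR, Benjamini-Hochberg adjusted). The TBX5 value became -0.05 with library totals, where the median of all genes was -0.405. Against Ctl the TBX3 call was lost without Ctl replicate c (-0.26) or TBX3 replicate c (-0.30). OSBP, an oxysterol-binding protein, was at 0.26 ± 0.08 with TBX2 against EV and 0.20 ± 0.08 against Ctl. The EV call was lost without TBX2 replicate c (0.21), and the Ctl call without Ctl replicate c (0.10), TBX2 replicate a (0.19) or TBX2 replicate c (0.15). Against EV this list had 2, 1, 0 and 0 genes lower and 1, 0, 0 and 2 higher for the plasmids in order, beside 13.4%, 4.13%, 2.63% and 4.96% of all genes lower and 14.7%, 5.78%, 3.83% and 5.26% higher.

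NR1H3, which encodes the sterol-sensing nuclear receptor LXR-alpha, was at 2.84, 2.57 and 1.98 CPM in Ctl, 2.86, 2.36 and 3.13 in EV, 4.71, 5.53 and 4.55 in TBX2, 2.75, 2.26 and 3.16 in TBX3, 3.52, 3.35 and 2.22 in TBX4 and 2.77, 3.17 and 2.79 in TBX5. Every TBX2 library was above every other library. It rose with TBX2 by 0.81 ± 0.20 against EV and 1.01 ± 0.21 against Ctl, with adjusted p of 0.00375 and 0.00066 in the quasi-likelihood test of edgeR, Benjamini-Hochberg adjusted. Of the 6 tested genes of cholesterol export and LXR targets, 0 were lower and 1, 1, 0 and 1 higher against EV with TBX2, TBX3, TBX4 and TBX5, where 14.7%, 5.78%, 3.83% and 5.26% of all genes were higher. Against Ctl 2, 0, 2 and 1 of them were lower and 1, 1, 0 and 0 higher. Over all genes the shares against Ctl were 13.4%, 4.15%, 4.03% and 4.37% lower and 15.3%, 6.66%, 5.68% and 5.70% higher. ABCG1 was not tested for low counts.

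Among fatty acid oxidation genes (13 tested) CPT2, a carnitine palmitoyltransferase of mitochondria, rose with TBX2 by 0.57 ± 0.14 against EV and 0.47 ± 0.14 against Ctl. HADHA, of the trifunctional protein, fell with TBX3, at -0.25 ± 0.06 and -0.26 ± 0.06 against EV and Ctl. With TBX2 it gave -0.15 ± 0.06 and -0.16 ± 0.06, calls lost without any of the EV replicates a or c or TBX2 replicates a, b or c against EV (-0.10 to -0.16), and without Ctl replicates b or c or TBX2 replicates a or b against Ctl (-0.13 to -0.17). PPARGC1A, a coactivator of oxidative genes, gave -0.55 ± 0.16 and -0.48 ± 0.16 with TBX4. The EV call was lost without EV replicate b (-0.40), TBX4 replicate b (-0.55) or TBX4 replicate c (-0.50), and the Ctl call without Ctl replicate b (-0.41) or c (-0.45) or any TBX4 replicate (-0.44 to -0.53). Against EV this list had 2, 1, 1 and 0 genes lower and 2, 0, 0 and 0 higher, with 13.4%, 4.13%, 2.63% and 4.96% lower and 14.7%, 5.78%, 3.83% and 5.26% higher over all genes.

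Sterol and isoprenoid genes outside the members (10 tested) had 1 gene lower and 1 higher with TBX2 and with TBX3 against EV, and 0 with TBX4 and TBX5, beside the same shares of all genes. ERG28, a scaffold of sterol demethylation, gave -0.34 ± 0.12 and -0.48 ± 0.12 with TBX2, the EV call being lost without EV replicate c (-0.27) or TBX2 replicate c (-0.31). PDSS2, of ubiquinone synthesis, gave 0.30 ± 0.11 and 0.28 ± 0.11, the EV call being lost without EV replicate b or TBX2 replicate a or b (0.27 to 0.28), and the Ctl call without Ctl replicate b or c or TBX2 replicate a or b (0.24 to 0.27). Further regulators of SREBP turnover and activity (8 tested) were not called against EV with any TBX. Against Ctl 1 was lower with TBX2, 1 lower with TBX5 and 1 higher with TBX3, beside 13.4%, 4.37% and 6.66% of all genes in these directions. Of the 19 combinations, library totals left 0 and DESeq2 15. DESeq2 did not call HADHA with TBX2 against EV, PPARGC1A with TBX4 against Ctl, OSBP with TBX2 against Ctl, or PDSS2 with TBX2 against either control. Without EV replicate c 11 remained.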

How the data were processed

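The deposited table holds raw read counts per Ensembl gene for 18 libraries, which the authors made by base calling with bcl2fastq 1.8.4, alignment to GRCh37 with STAR 2.3.0 and counting with featureCounts at its default settings, so that strand was not used. The authors then tested with DESeq2. Here the counts were taken as deposited, without change to any library. A gene was kept where 10 or more libraries held over 5 counts of it, which left 15576 of 63677. Counts were scaled by TMM, and 1 negative binomial model with 6 groups was fitted in edgeR 4.0.16 (R 4.3.3), leaving 12 residual degrees of freedom. Each contrast and the difference among the 4 TBX groups were tested by quasi-likelihood F tests, with p adjusted by Benjamini-Hochberg over all tested genes and calls at a false discovery rate of 0.1. The SE of a log2 fold change was its size divided by the square root of F. DESeq2 1.42.0 was the other tool.

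Symbols and positions came from GENCODE v44 lifted to GRCh37, and promoters from RefSeq on GRCh38.p14. Values in every library are given for 17 members: 5 regulators, the 4 sterol and 4 fatty acid members with the largest mean difference from the controls, and 4 more with the smallest p among the TBX groups. Other lipid genes were named where the same TBX was called against both EV and Ctl, at most 3 per list. The members and lists were chosen with earlier results of these data known. Each choice of scaling, filter, tool, threshold, design and library was changed 1 at a time. The fit was tested on simulated data.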

Additional observations from a re-analysis of the deposited data

How the results depend on the processing

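Scaling mattered most. With library totals, members called fell to 4 (TBX2), 0 (TBX3), 0 (TBX4) and 4 (TBX5) against EV, to 6, 0, 2 (1 lower and 1 higher) and 7 against Ctl, to 0 for EV against Ctl, to 2 among the 4 TBX groups, and to 0 of 19 for other lipid genes. With library totals 65 of 343 log2 fold changes of named genes turned direction, among them 11 called with at least 1 of the 2 scalings: FDFT1 (-0.11), SQLE (-0.11) and ACSL3 (-0.11) for TBX3 against TBX4; SQLE for TBX4 against TBX5 (0.56); SQLE (0.0266), ACAT2 (0.0306), SLC25A1 (0.0191), ACSL4 (0.0805) and ELOVL5 (0.18) for TBX4 against Ctl; ACAT2 for TBX2 against TBX5 (0.0270); and LRP8 for TBX5 against EV (-0.0508). The most counted gene enters these totals, and with it left out the counts were 25, 7, 18 and 17 against EV, 24, 17, 23 and 21 against Ctl, 4 for EV against Ctl and 18 among the TBX groups. Library totals move all genes of a comparison together, with a median of all genes of 0.361 for TBX4 against Ctl and -0.405 for TBX5 against EV. A turned direction is therefore no result about the named gene. Members called for TBX4 against TBX5 rose with library totals, and the share of all genes is not given. The cause of the changed counts was not tested. With 6 pooled controls TBX3 had 11 members called.

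Leaving out 1 library gave 20 to 24 (TBX2), 2 to 6 (TBX3), 12 to 17 (TBX4) and 14 to 16 (TBX5) against EV, 23 to 25, 12 to 14, 20 to 22 and 19 to 21 against Ctl, 4 to 6 for EV against Ctl, 18 to 21 among the TBX groups and 11 to 19 for other lipid genes. DESeq2 called 23, 4, 18 and 15 against EV, 24, 14, 21 and 21 against Ctl and 18 among the groups. At a false discovery rate of 0.05 the counts were 21, 4, 16 and 15, then 24, 13, 21 and 21, and 18. With a replicate block they were 25, 5, 17 and 15, then 24, 15, 23 and 21, 4 for EV against Ctl, and 19; the mean correlation of libraries with the same letter was 0.00043, so letters were not paired. The alternatives for pairs of TBX groups and for other lipid genes were chosen after seeing the data.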

Other observations

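TBX3 transcripts stood at 6.57, 6.69 and 6.85 CPM in the TBX4 libraries and at 13.2, 7.74 and 9.86 CPM in the TBX5 libraries, and at 1.37 to 3.33 CPM in the 6 control libraries. CDH2 was at 28.4 to 29.0 CPM in Ctl, 29.3 to 30.7 in EV, 22.2 to 26.8 in TBX2, 27.0 to 31.2 in TBX3, 24.1 to 26.2 in TBX4 and 20.6 to 29.0 in TBX5, with group means of 28.7, 29.9, 24.6, 29.1, 25.1 and 24.04. The part of CDH2 in the results was not tested.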
